A study of Homo sapiens with 2 samples.

Results

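The MYC network is a group of basic helix-loop-helix leucine zipper proteins that bind DNA in pairs. It was described here through 10 genes, MYC, MAX, MXD1, MXD3, MXD4, MXI1, MNT, MGA, MLX and MLXIP, taken by gene symbol. They were chosen with earlier results of these data known. A probe set, a group of array probes for a transcript, was taken as a member when its only annotated symbol was one of these genes. This gave 27 probe sets of 54675 on the array, for 9 of the 10 genes, out of 19775 genes with such a probe set in all. MXD4 had 3 probe sets, which all carry another symbol as well, so it was not analysed here. The cells were EOL-1, written Eol1 in the labels, a human eosinophilic leukaemia line with the FIP1L1-PDGFRA fusion kinase. Of the 2 cultures, 1 received Glivec (imatinib, which blocks the ABL, KIT and PDGF receptor tyrosine kinases) at 100 nM for 4 h, and 1 was left untreated. Both were grown in RPMI medium with serum and washed before RNA extraction, and the labels name no vehicle. Each culture gave 1 Affymetrix array, so differences could not be checked against replicates, and neither tests nor p-values are given.

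MYC pairs with MAX and activates genes that carry the E-box CACGTG, many of them for growth, ribosome assembly and nucleotide synthesis. The MXD proteins, MXI1, MNT and MGA pair with the same MAX and act mainly as repressors at the same sites, so that MAX is shared between activating and repressing pairs. MLX forms a parallel arm with MLXIP (MondoA), which responds to glucose metabolites. MYC messenger RNA is short-lived and is a known output of growth factor receptor and STAT5 signalling.

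The E-box ties the network to its target genes, and some network genes carry it themselves. Sequences of 300 bases, from 250 before to 50 after the gene start, were taken from RefSeq (GRCh38.p14). CACGTG, which reads the same on both strands, was present in 7.43% of all 27305 such promoters and in 10.2% of the 10236 that belong to genes measured here. Promoters were listed for 9 of the 10 network genes, all but MYC, whose promoter was therefore not searched. Of these 9, MXD4, MNT and MLX, 3 in all, held the motif. Among 69 promoters of a list of MYC-activated genes described further on, 28 (40.6%) held it. The sequences shown are the 2 network promoters with the motif whose genes were measured, and the 2 with it from the MYC-activated genes with the largest differences. Capitals mark the E-box and each sequence reads 5′ to 3′ along the gene. It starts 193 bases before the gene start in MNT (chr17:2401011-2401310, minus strand), 50 bases before it in MLX (chr17:42566850-42567149, plus strand) and 182 bases before it in PPAT (chr4:56435566-56435865, minus strand). In BYSL (chr6:41921249-41921548, plus strand) it starts at base 29 after the gene start.
MNT: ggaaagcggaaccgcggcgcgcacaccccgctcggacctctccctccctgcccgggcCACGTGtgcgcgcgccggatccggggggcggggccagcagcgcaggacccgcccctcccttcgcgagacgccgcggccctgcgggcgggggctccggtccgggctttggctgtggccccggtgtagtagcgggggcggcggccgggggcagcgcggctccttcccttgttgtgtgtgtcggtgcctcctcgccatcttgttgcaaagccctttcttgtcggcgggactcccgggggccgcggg
MLX: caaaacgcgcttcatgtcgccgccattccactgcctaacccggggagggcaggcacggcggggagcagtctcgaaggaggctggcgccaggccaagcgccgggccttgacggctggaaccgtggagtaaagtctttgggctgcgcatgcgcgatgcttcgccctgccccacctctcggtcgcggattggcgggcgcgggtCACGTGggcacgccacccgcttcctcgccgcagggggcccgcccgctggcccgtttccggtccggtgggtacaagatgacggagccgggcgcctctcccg
PPAT: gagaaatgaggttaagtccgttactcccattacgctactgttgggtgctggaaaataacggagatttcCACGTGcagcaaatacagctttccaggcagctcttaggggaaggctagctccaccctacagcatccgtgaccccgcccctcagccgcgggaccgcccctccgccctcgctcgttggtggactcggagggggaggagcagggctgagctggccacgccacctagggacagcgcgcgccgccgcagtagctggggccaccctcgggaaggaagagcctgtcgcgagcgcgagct
BYSL: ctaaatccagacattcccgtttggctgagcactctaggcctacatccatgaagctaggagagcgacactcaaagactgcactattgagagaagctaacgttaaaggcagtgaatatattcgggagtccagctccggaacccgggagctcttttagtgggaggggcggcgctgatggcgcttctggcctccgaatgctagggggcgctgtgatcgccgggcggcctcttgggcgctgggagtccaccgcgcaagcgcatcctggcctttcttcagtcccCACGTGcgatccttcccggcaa
A match describes these letters only, and binding was not measured.

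The values are signal intensities made with MAS5, 1 per probe set, scaled by the authors to a common level on both arrays. Lower signals were raised to a floor of 13.7, the median of all signals, before the log2 ratio of Glivec over untreated was taken. A gene was read from its brightest probe set, which left 12705 measured genes with a median log2 ratio of 0.10. Differences are therefore relative to the bulk of genes. The 18 probe sets of hybridisation spike-ins had a median log2 ratio of 0.74, with a range of 0.42 to 0.89. Whether these spike-ins follow the RNA content of the cells was not tested, so spike-in scaling is no measure of a global change in transcripts. Of genes at least 2-fold different, 54.4% were higher, against 42.2% with quantile normalization, 38.7% with median centring, 32.2% after loess and 1.7% with spike-in scaling. Error could be gauged only from how far probe sets of the same gene differed, a pooled SD of 0.327 on the log2 scale over 5077 genes, which leaves out all variation between cultures. Of 10 eosinophil marker genes with a probe set, 5 exceeded the floor on each array, though not the same 5. The summed signal of the 10 was 9473 with Glivec and 7257 untreated, carried by the granule protein genes PRG2 and RNASE2, which were higher with Glivec. EPX, above the floor only with Glivec (27.2, and 12.6 untreated), and CEBPE, at 126 and 103, were also higher. GATA2, at 94.4 with Glivec and 208 untreated, was lower, as was CLC (13.2 and 19.4), above the floor only untreated. PRG3, IL5RA, SIGLEC8 and GATA1 were below the floor on both arrays. A higher summed signal was not particular to eosinophil markers. Myeloid markers summed to 4723 with Glivec and 3634 untreated, non-blood markers to 306 and 260, and markers of other blood cells to 430 and 425. Fewer cells with a transcript and less transcript per cell cannot be told apart in bulk RNA.

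MYC was the network gene with the largest difference. Its probe set, 202431_s_at, had a signal of 557 with Glivec and 3781 untreated, a log2 ratio of -2.76 or 6.78-fold lower with Glivec. Both signals lay far above the floor. Of the 12705 measured genes, 11 had a lower ratio, bounds included. The MYC value rests on 1 probe set, so no second probe set of the gene could be set beside it.

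MXD3, which encodes a MAX-binding repressor, differed in the opposite direction. Its signals were 164 with Glivec and 71.9 untreated on its only probe set, 2.28-fold higher with Glivec (log2 ratio 1.19). A higher ratio was found for 199 of all measured genes. With spike-in scaling the MXD3 log2 ratio was 0.45, which is below 2-fold.

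MYC and MXD3 were the only network genes at least 2-fold different, under all but 3 of the settings tried. With spike-in scaling MYC, MAX, MGA and MLX were at least 2-fold lower and MXD3 was not past 2-fold. That setting also put 2484 of all genes at least 2-fold lower and 43 at least 2-fold higher. With the floor at the 75th percentile MXD3 was at 0.91, and with only _at probe sets neither MYC nor MXD3 has a value. In the main setting 1 of 9 was at least 2-fold lower, where 2.63% of all measured genes were. Likewise 1 of 9 was at least 2-fold higher, where 3.13% of all were. MYC was already known to respond in earlier results of these data, so its count and its rank are not independent evidence. At 1.5-fold the members counted were the same pair, against 8.33% of all genes lower and 13.5% higher. By any amount, 6 of the 9 were lower with Glivec, against 41.0% of all measured genes. The median log2 ratio of the 9 genes was -0.25. By probe set, 23 of the 27 had an array above the floor, and 16 of these 23 were lower, against 42.7% of all named probe sets. The other 4 (of MNT, MGA, MLX and MLXIP) were at or below the floor on both arrays and have no ratio.

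**Figure D1:**
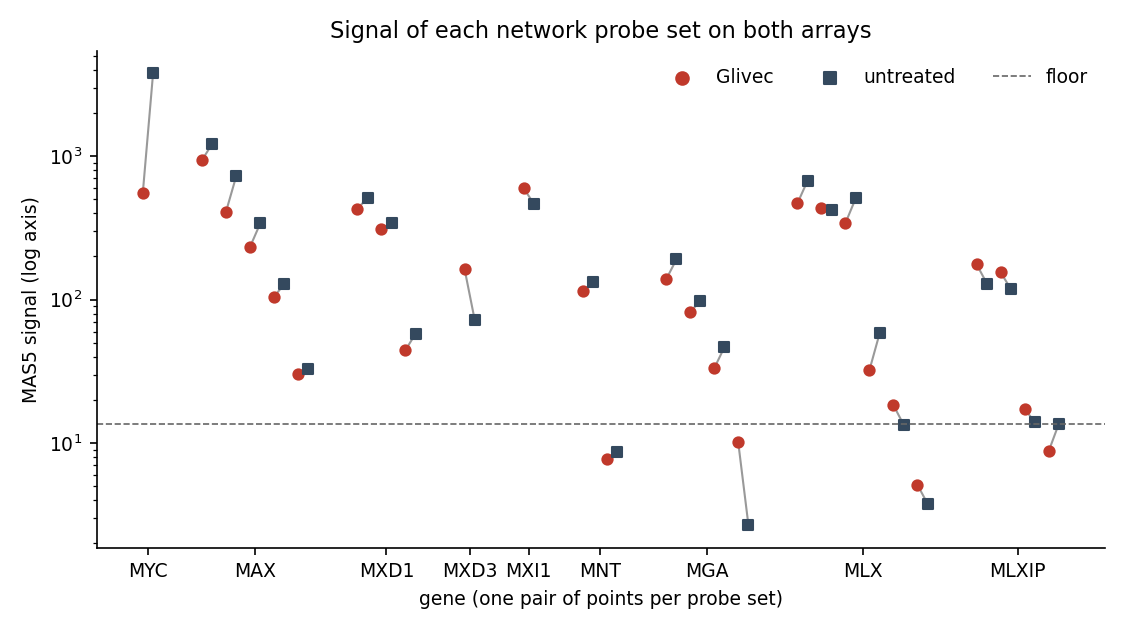
MAS5 signal (log axis) of each of the 27 network probe sets with Glivec (red circles) and untreated (dark squares), joined by a line. MYC has 557 with Glivec and 3781 untreated, MXD3 slopes the other way, and 4 pairs lie at or below the dashed floor of 13.7.

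MAX, the shared partner, was lower with Glivec on all 5 of its probe sets. The brightest, 209332_s_at, had signals of 940.2 with Glivec and 1223 untreated, a log2 ratio of -0.38. The next, 209331_s_at, had 411.5 with Glivec and 728 untreated, a log2 ratio of -0.82 and the lowest of the 5. The probe sets 210734_x_at and 208403_x_at, whose suffix marks possible cross-hybridisation, had log2 ratios of -0.55 and -0.29. The dimmest had 30.3 with Glivec and 32.6 untreated and was at -0.11. All 5 were thus below 0, and the SD between them was 0.27.

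The other MAX-binding antagonists did not share a direction. MXD1, a repressor known to increase when myeloid cells differentiate, had 431 with Glivec and 511 untreated on its brightest probe set, a log2 ratio of -0.25. Its other probe sets were at -0.14 (309 with Glivec and 340.5 untreated) and -0.38 (44.4 and 57.8). All 3 were lower, by amounts near the spread between probe sets in general.

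MXI1, which recruits SIN3 corepressors as the MXD proteins do, had a signal of 597 with Glivec and 464 untreated on its only probe set. Its log2 ratio of 0.36 exceeded the pooled SD between probe sets by little, and it was -0.38 with spike-in scaling. Higher antagonist signals were therefore seen for MXD3 and MXI1, each from 1 probe set.

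MNT, a broadly expressed repressor that pairs with MAX and also with MLX, had 115 with Glivec and 133 untreated. Its log2 ratio of -0.21 was smaller than the spread between probe sets. MGA, a large protein that carries a T-box domain as well and belongs to a Polycomb repressive complex, was lower on all 3 measured probe sets. They had signals of 139 with Glivec and 191 untreated (-0.46), 82.7 and 97.6 (-0.24), and 33.2 and 46.7 (-0.49). Of the antagonist genes, MXD1, MNT and MGA were thus lower on each probe set with a ratio, and MXD3 and MXI1 higher.

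**Figure D2:**
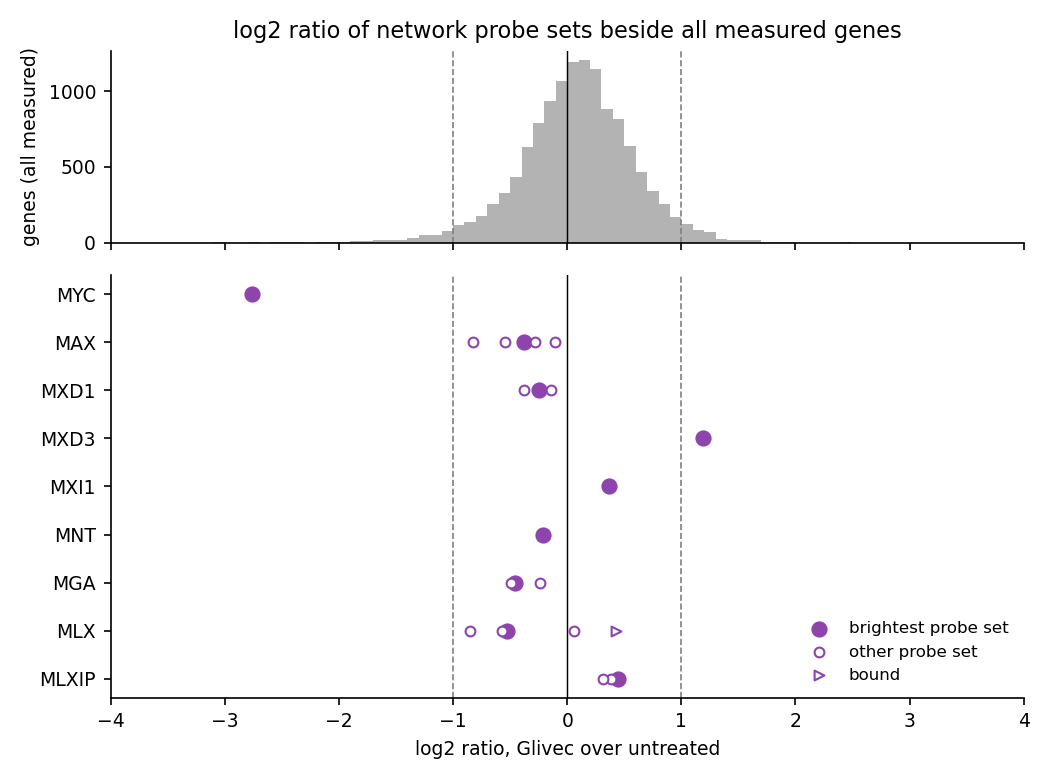
Upper panel: number of all 12705 measured genes by log2 ratio of Glivec over untreated. Lower panel: the 23 network probe sets with a ratio, filled for the brightest of each gene, with a triangle for the bound. Dashed lines mark 2-fold, and MYC at -2.76 and MXD3 at 1.19 are the only points outside them.

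In the MLX arm, MLX and MLXIP had opposite signs by their brightest probe sets, but not under every setting. Both were lower with spike-in scaling (log2 ratios -1.27 and -0.30) and both higher with only _at probe sets (0.42 and 0.44). The MLX value of 0.42 is a bound from 1 dim probe set. MLX had 469.6 with Glivec and 677 untreated on its brightest probe set, a log2 ratio of -0.53. The probe set 217910_x_at, with the suffix for possible cross-hybridisation (342 with Glivec and 508 untreated), and the dim 210752_s_at (32.3 and 58.4) were at -0.57 and -0.86. However, 217909_s_at had 437 with Glivec and 420.5 untreated, a log2 ratio of 0.06. The dim probe set behind the value of 0.42 had 18.4 with Glivec and an untreated signal under the floor, so it was at least 1.34-fold higher. MLX probe sets thus disagreed in sign, with 3 lower and 2 higher, and the SD of the 4 above the floor on both arrays was 0.38.

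MLXIP was higher on all 3 measured probe sets, with log2 ratios of 0.31 to 0.44. The brightest had a signal of 176 with Glivec and 129.5 untreated, the next 155 and 118, and the third 17.3 and 13.9. Under spike-in scaling MLXIP was at -0.30. MLXIPL (ChREBP), the relative of MLXIP that also pairs with MLX, was below the floor on both arrays.

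**Figure D3:**
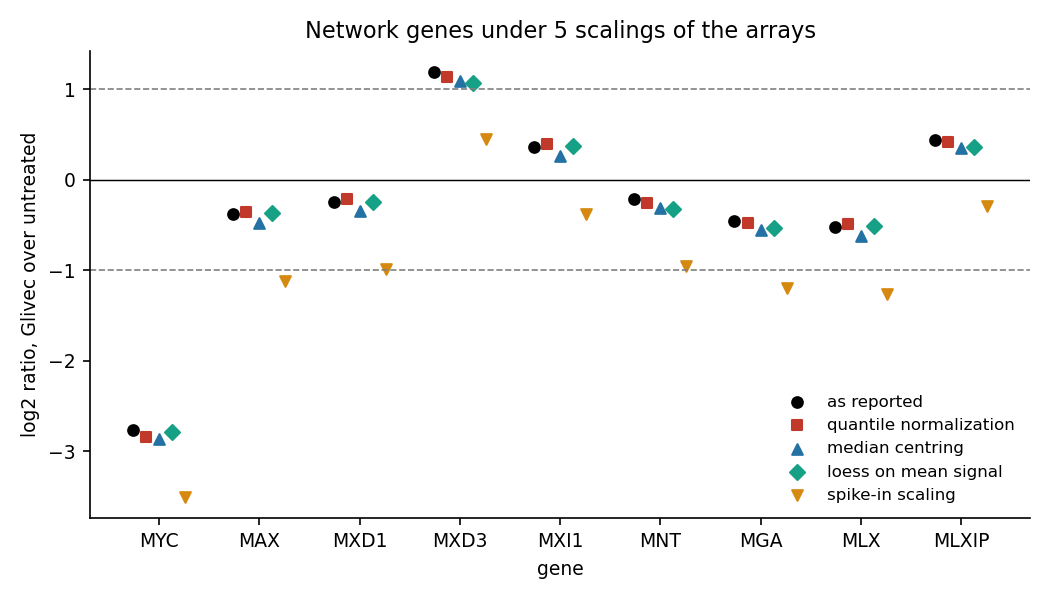
Log2 ratio of Glivec over untreated (vertical axis) of the 9 network genes under 5 scalings of the arrays. MYC lies between -3.50 and -2.76 in all 5, and MXI1 and MLXIP change sign only with spike-in scaling (inverted triangles), at -0.38 and -0.30.

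Across the 2 arrays, the measured genes whose pair of log2 signals lay nearest to MYC were MAT2A, SPIN4, CCND3, AMD1 and NOLC1. Their distances were 1.08 to 1.29 log2 units and their log2 ratios -1.67 to -0.97. Nearest to MXD3 were KIAA0319L, DNAJB4 and SERTAD3, at distances of 0.017 to 0.11, with log2 ratios of 1.20, 1.07 and 1.04. Such likeness rests on 2 arrays and on signals that depend on the probes, so it does not rank genes by how like their response was.

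Genes known to be activated by MYC were mostly lower with Glivec. The list held 82 genes, 74 of them with a probe set that names no other gene, and 73 were measured. Of these 73, 54 were lower by any amount, 15 (20.5%) were at least 2-fold lower and 0 at least 2-fold higher. Over all measured genes these shares were 41.0%, 2.63% and 3.13%. The median log2 ratio was -0.39, against 0.10 over all measured genes. The list was chosen with earlier results of these data known and shares genes with ribosome assembly lists that those results had covered, so it is not independent evidence of a direction.

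The lowest ratios on the list belonged to ribosome assembly, cell cycle and nucleotide synthesis genes. NIP7, a factor of 60S subunit assembly, had 134 with Glivec and 538 untreated, 4.03-fold lower, and its other probe set was at -2.20. CDC25A, a phosphatase that activates cyclin-dependent kinases, had 44.99 with Glivec and 155 untreated (3.46-fold lower). Its other probe sets were at -1.36 and -0.95, and with the floor at the 75th percentile its log2 ratio was -0.84, which is below 2-fold. PPAT, which catalyses the committed step of purine synthesis and whose promoter is shown above, had 119 with Glivec and 405 untreated on its brightest probe set (3.40-fold lower). Its other 2 measured probe sets had log2 ratios of -1.79 and 0.37, so PPAT probe sets disagreed.

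NOP16, a nucleolar protein, had 349 with Glivec and 1066 untreated (3.05-fold lower), with other probe sets between -2.04 and 0.91 and a mean of -0.91 over probe sets. BYSL, a factor of 40S assembly that also has its promoter above, had 179 with Glivec and 536 untreated, a log2 ratio of -1.58. CTPS1, which makes CTP from UTP, had 206 with Glivec and 544 untreated (2.64-fold lower). These 2 genes have 1 probe set each. The E-box was present in 4 of 14 promoters of the at least 2-fold lower genes of the list and in 23 of 48 of its other measured genes.

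At the other end of the list, PTMA, NPM1 and FBL had the highest ratios, and they are named after their values were seen. PTMA, encoding prothymosin alpha, had 7549 with Glivec and 5220.3 untreated, a log2 ratio of 0.53. NPM1, encoding nucleophosmin, was at 0.46 and FBL, the snoRNP methyltransferase fibrillarin, at 0.42. With quantile normalization the 3 log2 ratios were 0.12, 0.0016 and 0.21, and with spike-in scaling -0.21, -0.28 and -0.32.

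**Figure D4:**
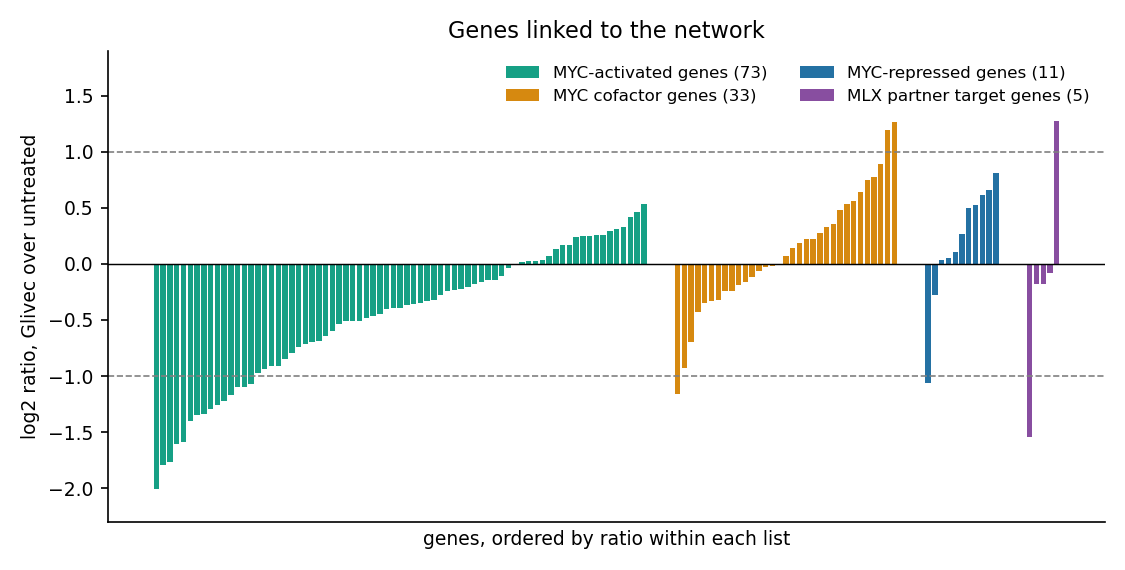
Log2 ratio of Glivec over untreated for each measured gene of 4 lists, ordered within each list, with the number of genes in the legend and dashed lines at 2-fold. The 73 MYC-activated genes run from -2.01 to 0.53, with 54 below 0, and the 33 cofactor genes from -1.16 to 1.26, with 15 below 0.

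A cofactor list held genes for proteins that bind MYC, MAX or the MXD proteins, or that set the stability of MYC, and also TFAP4. These genes lay on both sides of 0. Of 39 listed, 33 were measured, 18 higher and 15 lower, with a median log2 ratio of 0.07. At least 2-fold, 2 were higher and 1 was lower. Over all measured genes 59.0% were higher and 41.0% lower, with 3.13% at least 2-fold higher and 2.63% at least 2-fold lower, so these counts lay near the background. Only USP36, a nucleolar deubiquitinase of MYC, was at least 2-fold lower (78.0 with Glivec and 174 untreated, log2 ratio -1.16). Its other probe sets were between -1.36 and -0.43, and the mean over its probe sets was -0.99. MYCL, a MYC paralog, was 2.29-fold higher at low signal (53.8 with Glivec and 23.5 untreated), or at 0.63 by another probe set, and below 2-fold after loess (0.96), with spike-in scaling (0.46) and by the mean over probe sets (0.91). TFAP4, a MYC-regulated E-box binding factor, was placed on this list, so the counts of MYC-activated genes leave it out. It was at least 2.40-fold higher, its untreated signal being under the floor. Its bound was 0.89 with spike-in scaling and 0.40 with the floor at the 60th percentile.

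RUVBL1, an ATPase of the TIP60 acetyltransferase complex that MYC recruits, had a log2 ratio of -0.93, or -1.02 with median centring and -1.66 with spike-in scaling. The coactivator CREBBP was at 0.89 (-0.19 to 0.49 by other probe sets) and the deubiquitinase USP37 at 0.77 (0.05 and 0.13 by others). MYCN was below the floor on both arrays by its brightest probe set, and 1 other of its 10 probe sets was measured, with a log2 ratio of 0.05.

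Genes known to be repressed by MYC were few. Of 15 listed, 11 were measured and 9 were higher by any amount, against 59.0% of all measured genes. Their median log2 ratio was 0.27, or -0.47 with spike-in scaling, and none was at least 2-fold higher. GAS1, which arrests growth, was at least 1.75-fold higher, with an untreated signal under the floor. KLF6, a zinc finger factor, was at 0.66 with other probe sets from -0.47 to 0.56. The stress gene GADD45A was at 0.61, the CDK inhibitor gene CDKN1B at 0.52 and NDRG1 at 0.50. With spike-in scaling KLF6, GADD45A, CDKN1B and NDRG1 were at -0.08, -0.13, -0.22 and -0.24. THBS1, encoding thrombospondin, went the other way at low signal, with 18.5 with Glivec and 38.6 untreated (log2 ratio -1.06). It was below 2-fold with the floor at the 60th percentile (-0.63) and by the mean over probe sets (-0.70).

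Targets of MLX with MLXIP or MLXIPL differed in direction. TXNIP, which limits glucose uptake, had 2804 with Glivec and 1162 untreated, 2.41-fold higher, and its other probe sets were at 1.25 and 1.29. With spike-in scaling it was at 0.53. ARRDC4, its relative among the arrestins, had 109 with Glivec and 317 untreated, 2.91-fold lower on 1 probe set. The other 3 of the 5 measured targets, KLF10, PFKFB3 and G6PC1, had log2 ratios of -0.08, -0.18 and -0.18, the last a bound at the floor.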

How the data were processed

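Expression was measured on 2 Affymetrix arrays. The authors deposited linear signal intensities, computed by MAS5 according to the submitters' processing notes, with no version given in the sources used here. After removal of 2% of signals at each end the mean was 99.99 on both arrays. The array's 54675 probe sets include 62 controls. Names came from the platform annotation, with 41097 probe sets of 1 symbol, 1801 of several and 11777 unnamed, and matched through Entrez identifiers to RefSeq (GRCh38.p14), which changed 0 symbols. Signals under a floor of 13.7 were raised to it. The brightest probe set stood for a gene, with _x_at probe sets used only where no other was present, and 1 array above the floor counted as measured. A ratio with 1 array at the floor is a bound. The members, lists and alternatives were chosen with earlier results of these data known.

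Named genes were all members, the 6 largest ratios in size of each list, and the 5 and 3 nearest genes to MYC and to the most increased member. Arrays have no read depth, and their number limits the precision. The calculation was tested on simulated signals. Alternatives were quantile normalization, median centring, loess (span 0.3), spike-in scaling, floors at percentiles 40, 60 and 75, a pseudocount of 1.00 without a floor, averaging a gene's probe sets, keeping _at probe sets alone, and thresholds of 1.5-fold and 3-fold. Python 3.11.15, numpy 2.4.6, pandas 2.3.3, statsmodels 0.14.6 and matplotlib 3.10.9 were used.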

Additional observations from a re-analysis of the deposited data

How the results depend on the processing

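No paired analysis was possible because there was 1 array a group, and for the same reason no replicate could be left out. Given here are shifts of counts beyond 1.5 times, and shifts beyond the pooled SD between probe sets (0.327) of the MYC ratio and of the medians of the network, its MYC-activated genes and its cofactors. Of these 39 ratios and medians under alternatives, 35 stayed within that spread. Some could not leave it: other floors and the mean over probe sets cannot change MYC, which has 1 bright probe set. Median centring shifts ratios by only about 0.10. The 4 that moved did so with spike-in scaling. There the MYC log2 ratio was -3.50, the network median -0.98, the median of MYC-activated genes -1.13 and that of cofactor genes -0.67. Spike-in scaling also gave 4 network genes at least 2-fold lower and 0 higher, 43 MYC-activated genes lower, and 43 higher and 2484 lower of all genes. This follows from its shift of log2 ratios by about 0.74, or by less where a ratio is a bound. The cofactor median also crossed 0 with median centring and loess. Single genes, the remaining medians and the counts of members and MYC-activated genes lower by any amount gave 371 further values. Of these, 56 shifted beyond the spread and 1 reversed, and those that ended a 2-fold call stand beside the gene. With spike-in scaling the shifted medians were those of all genes (-0.59), MYC-repressed genes (-0.47) and MLX partner targets (-0.82). The median of MLX partner targets also shifted, to -1.54, with only _at probe sets. MLX was at 0.42, a bound, and PPAT reversed to 0.37 with only _at probe sets, which leave out the probe sets that gave lower values. MYC and MXD3 have no _at probe set, so that setting gave 0 network genes at least 2-fold lower and 0 higher. The floor at the 75th percentile left 0 network genes at least 2-fold higher, as MXD3 then met the floor in untreated cells. A 1.5-fold threshold gave 27 MYC-activated genes lower, and 1711 higher and 1058 lower of all genes. A 3-fold threshold gave 0 network genes higher, 4 MYC-activated genes lower, and 56 higher and 86 lower of all. All genes at least 2-fold higher numbered 222 after loess, 735, 234 and 91 with floors at percentiles 40, 60 and 75, and 2252 with the pseudocount. Those lower numbered 176 with the 75th percentile floor and 1705 with the pseudocount. The pseudocount sets no floor, so its counts are out of all 19775 genes with a probe set and not of the 12705 measured. Other floors also change which genes count as measured. Low signal limits the dimmer probe sets, whose ratios become bounds. For the shifts whose cause is not stated, the cause was not tested.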
